A study of Mus musculus with 2 samples.

Results

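Potassium channel subunits were compared between the tooth and the skin of newborn mice. The set held every gene whose name on the array began with Kcn, followed by a letter from a to v, any further letters and a number, and whose spots were not controls. It comprised 92 genes with 138 probes and 165 spots on each array, out of 24323 named genes. The rule itself used names alone and no measured value. Each tissue was represented by total RNA from wild-type animals at postnatal day 0, hybridised to 1 array per tissue, and the labels name no mutant allele and no treatment. The labels give day 0 as the age, the study's methods name a stage 1 day later and describe the dental sample as tooth germs, and neither states how many animals were pooled. Both are whole tissues of many cell types, so a larger share of expressing cells and more RNA per cell cannot be told apart.

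Potassium channels let potassium ions leave or enter cells along their electrochemical gradient and thereby set the resting membrane potential, end action potentials and recycle potassium in epithelia that transport salt. Voltage-gated, calcium-activated, inwardly rectifying and 2-pore-domain channels are separate families of pore-forming subunits. Accessory subunits form no pore and alter the gating, trafficking or calcium response of the pores they join. Ameloblasts, which make enamel, and the epithelia of hair follicle and epidermis all depend on ion transport, and muscle, vessel wall and nerve in either tissue carry channels of their own.

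Intensities are given as log2 values relative to the 75th percentile of the array, so 0 is the intensity below which 75% of the non-control probes lay. A difference is skin minus tooth, also in log2, and is negative where the tooth value was higher. A gene was called measured on an array when more than 50% of the spots of its probe were well above background. With 1 array per tissue no test was possible, and replicates are lacking for each value. The only error available is that estimated by the extraction software for each spot, which gave a difference an SD of 0.24 in the median over the subunits measured on both arrays, and this leaves out animals, dissection and labelling.

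The tissues matched their labels. All 6 enamel markers were at least 2-fold higher in tooth, with a summed level of 2163 in tooth and 0.269 in skin (linear, relative to the 75th percentile), and 5 of the 6, Amelx and Ambn among them, were not well above background on the skin array. Of 7 epidermal markers 6 were at least 2-fold higher in skin, with summed levels of 528 in tooth and 4787 in skin. The 75th percentile itself corresponded to an intensity of 428 for tooth and 276 for skin. The lowest signal called well above background was -4.52 for tooth and -3.73 for skin, a gap of 0.78, so a weak signal was called more readily in tooth.

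Of the 92 subunits, 62 (67.4%) passed the background call in 1 tissue or both, beside 71.6% of all named genes. The tooth array called more of them than the skin array did. Both arrays measured 35 of them, tooth alone 23, skin alone 4, and neither 30. The tooth-only subunits were 37.1% of the 62, against 8.03% of all measured genes, and the skin-only subunits were 6.45%, against 4.25%. Of the 23 tooth-only subunits 4 had a tooth value below the lowest signal called on the skin array, so no fold can be given for them. Another 12 had a bound between 1-fold and 2-fold, and 7 had a bound of at least 2-fold.

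**Figure D1:**
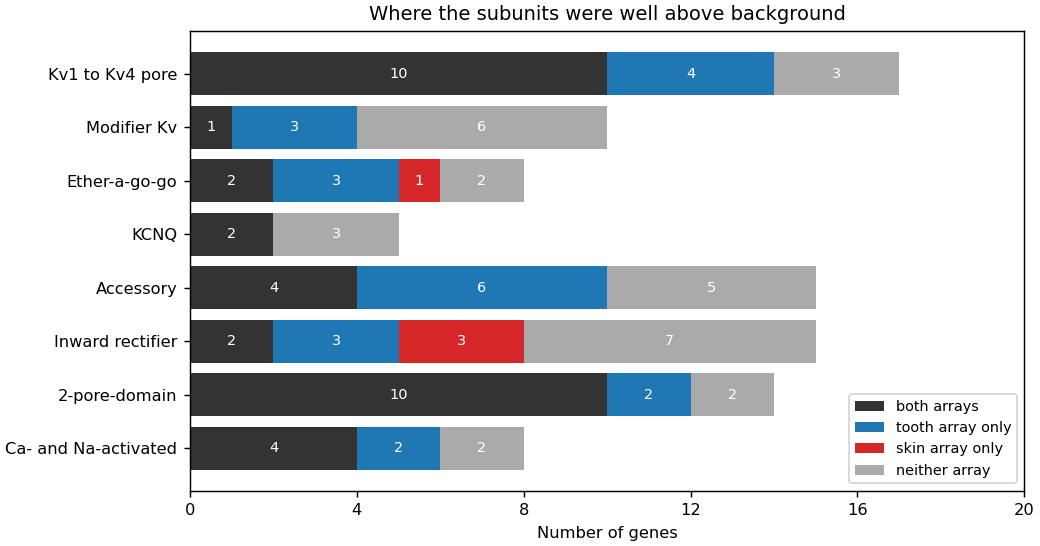
Number of potassium channel genes (x axis) in each role (y axis) by where the probe was well above background, with the count written in each bar segment. Skin-only calls occurred among the inward rectifiers (3) and the ether-a-go-go family (1), whereas tooth-only calls occurred in each role but the KCNQ family.

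By values as measured, 28 of the 62 subunits were at least 2-fold higher in tooth (45.2%, against 15.5% of all measured genes), and 7 were at least 2-fold higher in skin (11.3%, against 14.2%). The median difference was -0.85, with quartiles of -1.89 and 0.23 and a range from -4.66 to 6.79, whereas over all measured genes it was -0.04. Among the 35 subunits measured on both arrays the tooth excess was smaller in number. There 12 were at least 2-fold higher in tooth (34.3%, against 12.3% of genes measured on both), 3 were at least 2-fold higher in skin (8.57%, against 11.4%), and 20 lay within 2-fold, with a median of -0.36 against -0.03.

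Many of these subunits gave a weak signal, and the size of the tooth excess depended on how that signal was treated. Of the 28 subunits at least 2-fold higher in tooth, 16 (57.1%) were not well above background on the skin array, compared with 808 of the 2691 genes called in that direction overall. The share was the same among the 7 subunits higher in skin, of which 4 (57.1%) were not well above background in tooth, compared with 721 of 2466 genes. With the normexp background correction, which adds a constant of 50 and so compresses weak values, 10 subunits (16.1%) were at least 2-fold higher in tooth, against 9.60% of all genes, and the median was -0.01, against 0.03. By role, those at least 2-fold higher in tooth under normexp were 3 of the 10 measured accessory subunits, 3 of the 12 2-pore-domain channels, 2 of the 6 ether-a-go-go genes, 1 of the 8 inward rectifiers and 1 of the 6 calcium- and sodium-activated pores. None of the 14 Kv1 to Kv4 pores, the 4 modifiers or the 2 KCNQ genes was. With each dim value raised to its bound, 19 subunits (30.6%, against 13.3% of all genes) were at least 2-fold higher in tooth and 6 (9.68%, against 14.0%) in skin, with a median of -0.56, against -0.01. In each of the 10 alternative settings the number higher in tooth exceeded the number higher in skin.

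**Figure D2:**
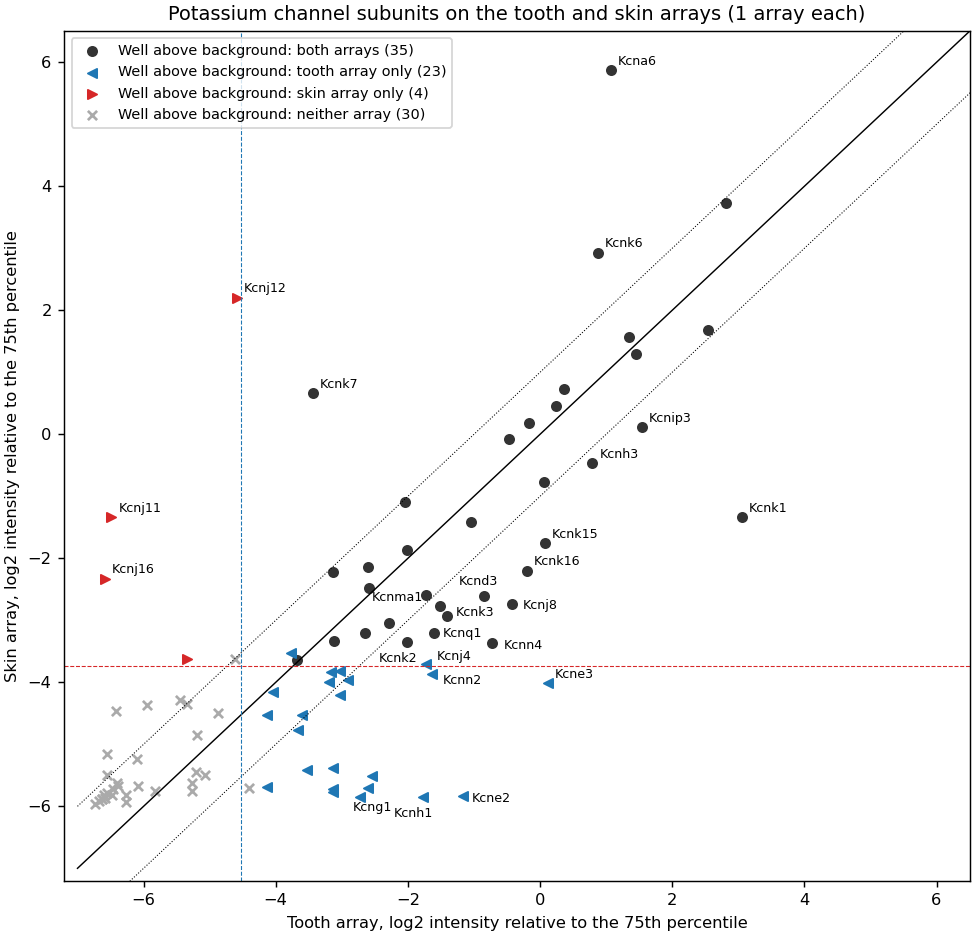
Log2 intensity of the 92 subunits on the skin array (y axis) against the tooth array (x axis), each relative to the array's 75th percentile, 1 point per gene. The solid line marks equal values, dotted lines 2-fold differences, and dashed lines the lowest signal called well above background on each array (-4.52 in tooth, -3.73 in skin). Kcna6, Kcnk7, Kcnk6 and the skin-only Kcnj12, Kcnj11 and Kcnj16 lie far above the line, and Kcnk1 lies farthest below it among the subunits measured on both arrays.

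The pore-forming subunits of the classical voltage-gated channels (Kv1 to Kv4, the Kcna to Kcnd genes) were the most widely measured of the voltage-gated groups. Of 17 genes, 14 were well above background on an array, 10 of them on both. Among these 14, 4 were at least 2-fold higher in tooth and 1 in skin. The 6 measured Kcna genes, which encode shaker-related channels that repolarise nerve and muscle, were all called on both arrays, and 5 of them lay within 2-fold, between -0.77 for Kcna3 and 0.93 for Kcna4. Among the Kcnd genes, Kcnd3, a pore of the rapidly inactivating A-type current, was -0.85 in tooth and -2.61 in skin, 3.39-fold higher in tooth (spot SD 0.27). Kcnb2, which carries slow delayed rectifier current, was called in tooth only at -3.14, with a bound under 2-fold. Kcnd1 showed the smallest difference of the group, with 1.45 in tooth and 1.30 in skin (-0.15, spot SD 0.20). Its direction was not settled, since a second probe measured on both arrays gave a difference of 0.78. The mean over its probes was 0.33, which includes a further probe that stayed at background in both tissues. Kcnd3 was no longer 2-fold apart under normexp (-0.81). Averaging its probes gave -0.50, but the other probe of Kcnd3 stayed at background in both tissues.

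Kcna6, another shaker-related pore, had the largest skin excess among subunits measured on both arrays, with 1.07 in tooth and 5.87 in skin, 27.9-fold higher in skin (spot SD 0.20). That value rests on 1 of its 3 probes. The brightest probe is listed under a cDNA clone alone, whereas a probe whose start lies 220 bases away stayed at background in both tissues, at -6.53 in tooth and -5.76 in skin. The remaining probe, 28278 bases away, pointed to tooth, with -0.04 in tooth and -1.91 in skin (-1.87). The first 30 of the 60 bases of each probe are shown because the probes of this gene gave opposite answers (file coordinates in mm9, minus strand).
Kcna6 probe higher in skin, chr6:126686702-126686761: tgtcatggtccctctttgtgcctcagttcc
Kcna6 probe not above background, chr6:126686922-126686981: tcttctcagttctcatgggtacagctctga
Kcna6 probe higher in tooth, chr6:126658424-126658483: gagagttgctggtctgatcaaaggagagga
No other probe on the array shared a run of 20 or more bases with the brightest one. Averaged over the 3 probes the difference was 1.23, and of 5 subunits with several probes measured on both arrays Kcna6 was the only one whose probes lay at least 2-fold apart with opposite signs. The direction of Kcna6 is therefore not settled by these probes.

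**Figure D3:**
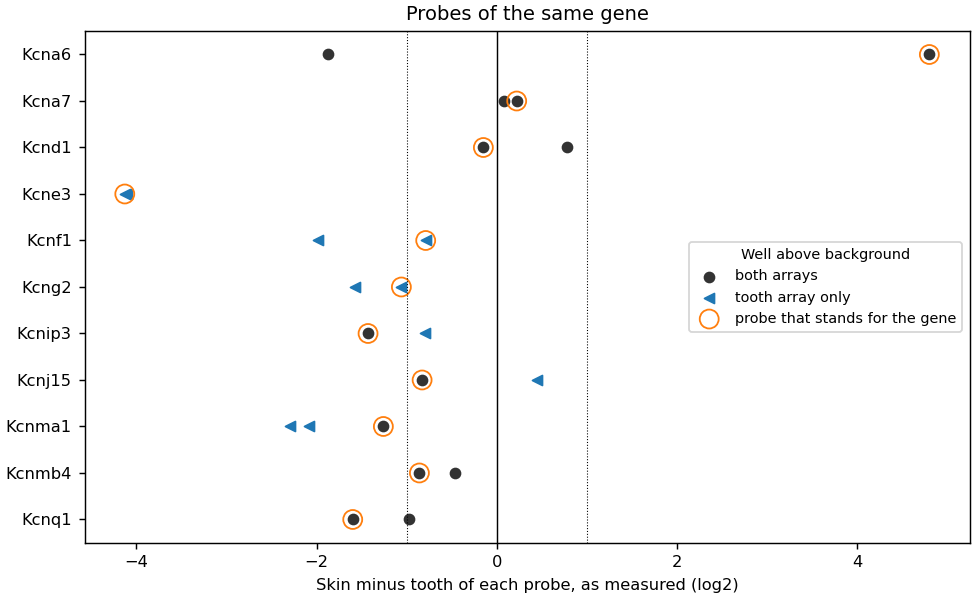
Skin minus tooth difference (x axis, log2, as measured) of each probe well above background on an array, for subunits with at least 2 such probes (y axis). Open circles mark the probe that stands for the gene. The probes of Kcna6 lie 6.67 apart, those of Kcne3 0.01 apart, and those of the other genes shown between 0.14 and 1.27.

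Agreement among probes was closer elsewhere. Of the 37 subunits with several probes, 12 had at least 2 that were well above background on an array. Besides Kcna6, the gap between the highest and the lowest of these probes was over 1 for Kcnj15 (1.27), Kcnf1 (1.19) and Kcnma1 (1.03). In Kcnj15 the second probe was called in tooth only and had a difference of 0.44, against -0.83 for the probe that stood for the gene. Its tooth value of -4.09 lies below the skin array's lowest called signal, so the 0.44 gives no direction. Both probes of Kcne3 were tooth only, with differences of -4.13 and -4.11. The longest run of bases shared by probes of different subunits was 13, between Kcnk5 and Kcnn3.

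Modifier subunits (Kcnf, Kcng, Kcns and Kcnv), which do not conduct alone but join other voltage-gated pores and change their gating, were rarely measured. Of 10 genes 4 were well above background, 3 of them in tooth only. Kcng1 was called in tooth only at -2.61, at least 2.17-fold higher, although a second probe stayed at background in both tissues and normexp gave -0.42. Kcns3 was the only modifier measured in both tissues, with -2.04 in tooth and -1.09 in skin (0.96, spot SD 0.22), just under 2-fold towards skin. The Kcnf and Kcng modifiers that were measured were all called in tooth alone.

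In the ether-a-go-go family (Kcnh), which includes the Kcnh2 channel that ends the cardiac action potential, 6 of 8 genes were measured. Kcnh1, the counterpart of the fly channel that named the family, was called in tooth only at -1.77, at least 3.89-fold higher. Kcnh3, a brain-enriched member, was 0.79 in tooth and -0.47 in skin, 2.39-fold higher in tooth (spot SD 0.21). Kcnh4 differed little, with -0.16 and 0.18 (0.34, spot SD 0.21). Kcnh8 was called in skin only at -3.63, close to that array's lowest called signal, with a bound of 1.84-fold.

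The KCNQ genes encode the slowly activating channels of heart, ear, neurons and secretory epithelium, and 2 of the 5 were measured. Kcnq1, the member that works in heart and in transporting epithelia, was -1.61 in tooth and -3.21 in skin, 3.04-fold higher in tooth (spot SD 0.31). Its other probe, also measured on both arrays, gave a difference of -0.97, just under 2-fold. The 2 probes overlap (chr7:150612887-150612946 and chr7:150612896-150612955), so they are not independent, and yet they lay 0.63 apart. Under normexp the difference of Kcnq1 was -0.56.

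Of 15 accessory subunits 10 were measured, 6 of these in tooth only. As measured, 6 of the 10 were at least 2-fold higher in tooth and none in skin, against 15.5% and 14.2% of all measured genes. With dim values at their bound 3 of the 10 were at least 2-fold higher in tooth. Of the 4 measured on both arrays 1 was, and 3 lay within 2-fold. The Kcne genes, small single-pass proteins that join Kcnq1 and other pores, gave the clearest values. Kcne3, which holds Kcnq1 open in intestinal and airway epithelium, was 0.12 in tooth and was not well above background in skin (-4.01), at least 14.4-fold higher in tooth. Kcne2, which partners Kcnq1 in gastric and thyroid epithelium, was -1.17 in tooth and -5.84, below the calling limit, in skin, at least 5.88-fold higher in tooth. Kcnq1 and these partners were therefore all higher in the tooth sample, and both Kcne differences stayed beyond 2-fold under normexp (-2.25 and -1.51). Kcne1, the cardiac partner, stayed at background in both tissues.

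The Kcnip genes encode calcium-binding proteins that traffic Kcnd pores. All 4 were measured and all 4 were at least 2-fold higher in tooth as measured, between -2.64 and -1.11, but 3 were tooth only and, at their bounds, 1 of the 4 was. That gene was Kcnip3, also a calcium-regulated transcriptional repressor, with 1.54 in tooth and 0.11 in skin, 2.70-fold higher in tooth (spot SD 0.21). Kcnab1, a cytoplasmic partner of Kcna pores, was level at -2.59 and -2.48 (0.11, spot SD 0.26). Of the Kcnmb genes, which tune the BK channel, Kcnmb4 alone was measured, with 2.54 in tooth and 1.68 in skin (-0.86, spot SD 0.20).

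**Figure D4:**
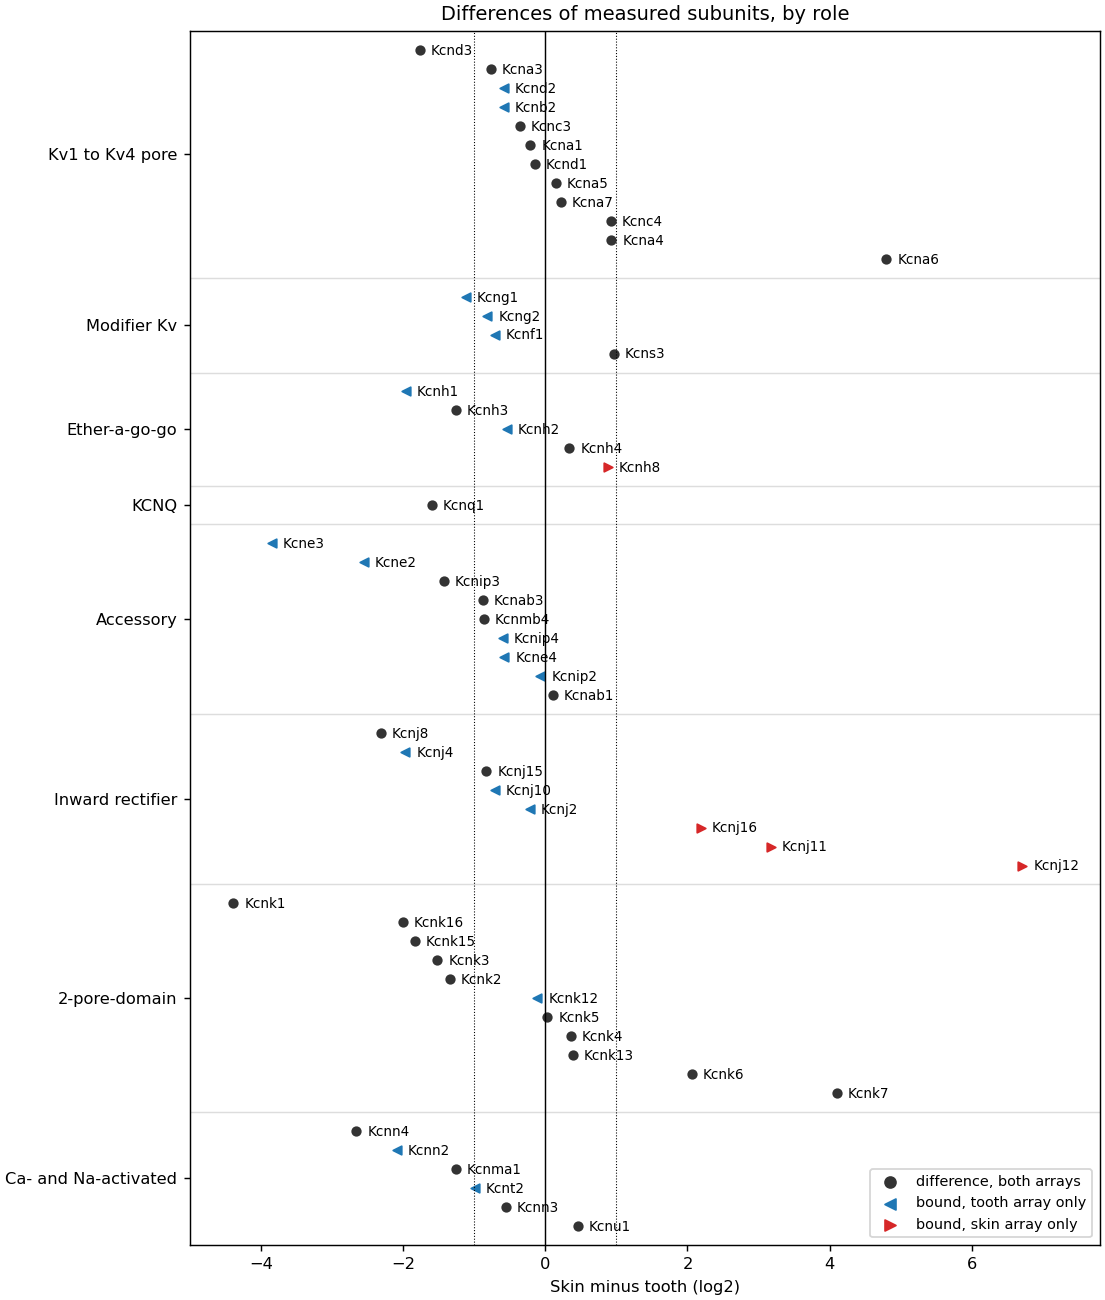
Skin minus tooth difference (x axis, log2) of measured subunits, grouped by role (y axis). Circles are differences between values well above background on both arrays, left-pointing triangles are bounds of tooth-only subunits and right-pointing triangles are bounds of skin-only subunits, with dotted lines at 2-fold. The 4 tooth-only subunits whose bound gives no fold are among those left out. No accessory, KCNQ, modifier or calcium- and sodium-activated subunit lies beyond 2-fold on the skin side.

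Inward rectifiers (Kcnj), which pass potassium more easily inwards than outwards and hold cells near rest, divided between the tissues. Of 15 genes 8 were measured, 4 of them at least 2-fold higher in tooth and 3 in skin. The skin side held the largest bound of all members. Kcnj12, a strong rectifier of skeletal muscle and heart, was 2.20 in skin and, at -4.59, not well above background in tooth, at least 105-fold higher in skin. Kcnj11, the pore of the ATP-sensitive channel of pancreatic beta cells and muscle, was called in skin only at -1.34, at least 9.01-fold higher, but its other probe was dim on both arrays. Kcnj16, which conducts mainly when joined to Kcnj10, was skin only at -2.33, at least 4.56-fold higher. Kcnj10 itself was called in tooth only, at -3.03, with a bound of 1.63-fold.
The probes of these skin-only genes are shown by their first 30 of 60 bases (mm9), since their calls rest on single probes.
Kcnj12, chr11:60884556-60884615, plus strand: tcaggctgcttgtgaccatgttaacgattc
Kcnj11, chr7:53354095-53354154, minus strand: agtgtggctgtggcgaaggccaagcccaag
Kcnj16, chr11:110889223-110889282, plus strand: ttataacatgctttgacacgcctgatggct
Skeletal muscle markers were higher in the same sample. Of 8 listed, 7 were measured and all 7, Ckm, Myh8 and Myog among them, were at least 2-fold higher in skin, with summed levels of 8.98 in tooth and 90.0 in skin, and Mylpf stayed at background in both tissues. Their part in the values of Kcnj12 and Kcnj11 was not tested.

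On the tooth side, Kcnj8, the vascular pore of ATP-sensitive channels and a marker of pericytes, was -0.42 in tooth and -2.73 in skin, 4.95-fold higher in tooth (spot SD 0.26). Its sulfonylurea receptor Abcc9 had 0.87 and -1.80 (-2.67), whereas Abcc8, the receptor used with Kcnj11 in beta cells, was level (0.02). Of 6 markers of mural and smooth muscle cells, all measured, 4 were at least 2-fold higher in tooth, with summed levels of 37.5 in tooth and 9.35 in skin, and Rgs5 and Pdgfrb were among the 4. Their part in the Kcnj8 value was not tested. Kcnj4, a strong rectifier of brain, was called in tooth only at -1.73, at least 3.92-fold higher, with -0.54 under normexp. Its probe is listed with coordinates that span 25 bases only, fewer than its own 60. Kcnj15, a rectifier known from kidney, was 0.06 in tooth and -0.77 in skin (-0.83, spot SD 0.21).

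Adjacent genes did not need to share a pattern. Among 10 pairs of members that neighbour each other in the RefSeq order of GRCm38.p6, 4 pairs had both genes measured. Kcnj16 and Kcnj2, side by side on chromosome 11, were called in opposite tissues, Kcnj16 in skin only and Kcnj2 in tooth only (-3.52 in tooth, with a bound of 1.16-fold). On chromosome 14 Kcnk5 was level (0.03) next to Kcnk16, which was 4.01-fold higher in tooth. In the row of Kcna5, Kcna1 and Kcna6 on chromosome 6 the first pair were level (0.15 and -0.21), beside 4.80 for the brightest probe of Kcna6.

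The 2-pore-domain genes (Kcnk), whose channels are open at rest and carry the background leak, were the most completely measured group, with 12 of 14 called and 10 of these on both arrays. They also spanned the widest range measured on both arrays. Of the 12, 5 were at least 2-fold higher in tooth and 2 in skin. Kcnk1, a weakly inward-rectifying leak channel of kidney and other epithelia, was 3.05 in tooth and -1.34 in skin, 20.9-fold higher in tooth (spot SD 0.22), the largest tooth excess among the 35 subunits measured in both tissues. Kcnk7, a close relative that carries no current when expressed alone, was the opposite, at -3.44 in tooth and 0.66 in skin, 17.1-fold higher in skin (spot SD 0.25). Kcnk6, a relative of both, was 0.87 and 2.93, 4.17-fold higher in skin (spot SD 0.20). These 3 belong to the same branch of the family. Kcnk1 stayed on the tooth side, and Kcnk6 and Kcnk7 on the skin side, when the background correction or the scaling was changed. Under normexp the differences of Kcnk1, Kcnk6 and Kcnk7 were -3.74, 1.87 and 2.82, and under spike-in scaling -5.08, 1.37 and 3.41. Each has a single probe called on both arrays. The settings for filter, call, bound and probe averaging could therefore not change these values, and the deposited table rescales the same intensities.

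The remaining Kcnk genes beyond 2-fold were all higher in tooth. Kcnk16, an alkaline-activated channel known from pancreatic islets, was -0.20 in tooth and -2.20 in skin, 4.01-fold higher in tooth (spot SD 0.24). Kcnk15, a relative of the acid-sensitive leak channels that gives no current alone, was 0.07 and -1.76, 3.57-fold higher in tooth (spot SD 0.22). Kcnk3, an acid-sensitive leak channel, was -1.41 and -2.93, 2.88-fold higher in tooth (spot SD 0.28). Kcnk2, opened by stretch and lipids, was -2.01 and -3.35, 2.53-fold higher in tooth (spot SD 0.35). Kcnk3 and Kcnk2 were weak in skin and came within 2-fold under normexp, at -0.61 for Kcnk3 and -0.29 for Kcnk2, whereas Kcnk16 and Kcnk15 stayed beyond it (-1.24 and -1.37). Kcnk5, active at alkaline pH, was level at -3.68 and -3.64 (0.03, spot SD 0.37).

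Promoters were examined for Kcnk1, with the largest tooth excess among subunits measured on both arrays, and for the skin-high Kcnk7 and Kcnj12, each of which has a single promoter in the RefSeq table of GRCm38.p6. The 250 bases before the start site are printed 5′ to 3′ on the gene's strand. Capitals mark a match on either strand to the TATA box (TATAAA), to the CAAT box (letters CCAAT) or to the GC box (letters GGGCGG). The run in capitals in Kcnk7 is a GC box on the opposite strand, and neither of the other promoters holds a match.
Kcnk1, chr8:125994852-125995101, plus strand: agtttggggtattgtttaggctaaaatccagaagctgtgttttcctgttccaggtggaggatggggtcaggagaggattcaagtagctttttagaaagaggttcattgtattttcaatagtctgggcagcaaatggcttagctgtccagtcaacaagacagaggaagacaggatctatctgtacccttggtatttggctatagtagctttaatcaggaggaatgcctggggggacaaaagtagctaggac
Kcnk7, chr19:5704221-5704470, plus strand: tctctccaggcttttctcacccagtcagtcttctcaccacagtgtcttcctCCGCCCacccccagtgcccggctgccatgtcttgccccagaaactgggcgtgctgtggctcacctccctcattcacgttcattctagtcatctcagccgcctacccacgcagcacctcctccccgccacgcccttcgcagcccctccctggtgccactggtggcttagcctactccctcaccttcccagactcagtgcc
Kcnj12, chr11:61065554-61065803, plus strand: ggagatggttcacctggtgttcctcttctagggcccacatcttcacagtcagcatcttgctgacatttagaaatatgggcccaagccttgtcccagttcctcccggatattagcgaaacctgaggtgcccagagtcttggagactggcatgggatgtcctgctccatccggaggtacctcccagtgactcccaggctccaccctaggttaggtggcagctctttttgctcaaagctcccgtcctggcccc
The table held 92 promoters for 67 of the 92 subunits, and these had a median GC content of 58.6%, compared with 52.4% over all 32851 promoters. TATAAA occurred in 3.26% of the subunit promoters and in 12.4% of all promoters, CCAAT in 29.3% and 33.8%, and GGGCGG in 44.6% and 32.7%. The E-box CANNTG, which reads the same on both strands as a pattern and was not put in capitals, occurred in 66.3% and 66.2%. A CAAT box and an E-box can share letters. Of the 30 promoters of subunits at least 2-fold higher in tooth, from 20 genes, none held TATAAA. Of the 8 promoters of subunits at least 2-fold higher in skin, from 5 genes, 1 did. It belongs to Kcnj16, which has several promoters among the 8. A match of letters is a description and not a binding site.

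Of 8 calcium- and sodium-activated pores 6 were measured. As measured, 4 of the 6 were at least 2-fold higher in tooth and none in skin, against 15.5% and 14.2% of all measured genes. The number higher in tooth was 3 with dim values at their bound and 1 under normexp. Of the 4 measured on both arrays 2 were higher in tooth and 2 lay within 2-fold. Kcnn4, the intermediate-conductance channel of red cells, T cells and secretory epithelia, was -0.72 in tooth and -3.37 in skin, 6.30-fold higher in tooth (spot SD 0.35). Of 4 T-cell markers 3 were measured, 1 of them at least 2-fold higher in skin and the other 2 within 2-fold, with summed levels of 6.38 in tooth and 11.7 in skin. Of 4 red-cell markers 2 were measured, Alas2 and Slc4a1, and both lay within 2-fold, with summed levels of 1.73 and 1.27. The part of these cells in the Kcnn4 value was not tested.

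Kcnma1, the pore of the large-conductance BK channel of smooth muscle, nerve and secretory cells, was -1.51 in tooth and -2.77 in skin, 2.40-fold higher in tooth (spot SD 0.29), and 2 further probes were called in tooth only. Their tooth levels were -1.84 and -3.76, and the weaker of them lies below the skin array's lowest called signal, so it gives no fold. Of the 6 mural and smooth muscle markers given with Kcnj8, 4 were at least 2-fold higher in tooth, whereas Myh11 (0.18) and Cspg4 (0.23) lay within 2-fold. The part of these cells in the Kcnma1 value was not tested. Kcnn2, a small-conductance channel of nerve and heart, was called in tooth only at -1.64 over 10 spots, at least 4.27-fold higher. Under normexp neither gene reached 2-fold (-0.44 and -0.74). Kcnu1, the alkaline-activated channel of sperm, was within 2-fold at -2.60 and -2.14 (0.46, spot SD 0.25).

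**Figure D5:**
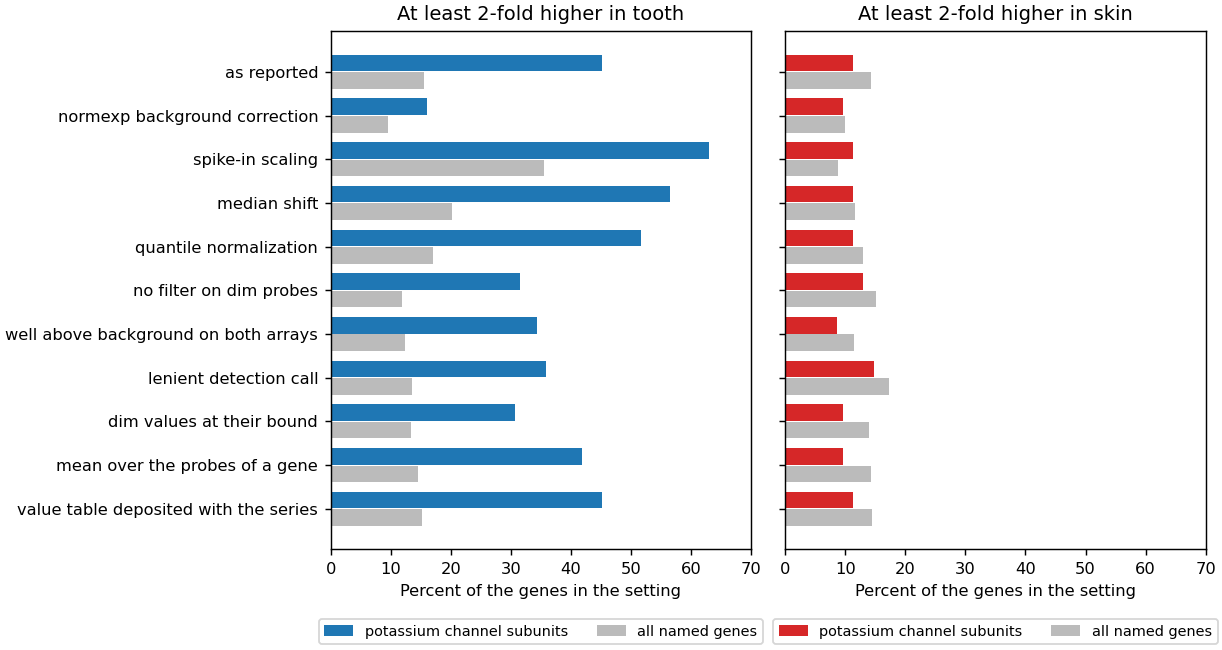
Percent of subunits and of all named genes (x axis) at least 2-fold higher in tooth (left) or in skin (right), as reported and under each of the 10 alternative settings (y axis). The tooth share of the subunits lies above that of all genes in each setting, from 16.1% against 9.60% under normexp to 62.9% against 35.5% under spike-in scaling, whereas the skin share lies below that of all genes but for spike-in scaling (11.3% against 8.71%).

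Genes that work with these channels without matching the name rule were listed for comparison. Of 29 such genes 23 were measured, and 7 of these were at least 2-fold higher in tooth and 1 in skin, beside the 15.5% and 14.2% of all measured genes given above. The other 15 lay within 2-fold, and the median was -0.45. The 4 genes of the pacemaker channels, the Hcn family, had 2 measured and none beyond 2-fold, and Dpp6 and Dpp10, partners of the Kcnd pores, were within 2-fold too (0.63 and 0.70). Kcne1l, a Kcne relative, was -0.76 in tooth and -2.51 in skin (-1.74), and Lrrc55, a partner of Kcnma1, was tooth only with a bound of 1.08-fold. Among the transporters that move potassium together with chloride, Slc12a2, Slc12a4 and Slc12a7 had differences of -1.29, -1.81 and -1.78.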

How the data were processed

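RNA from 1 tooth and 1 skin sample was measured on SurePrint G3 mouse arrays, both on 1 slide, after column purification and labelling with a single cyanine dye. Per the file headers, the deposited spot intensities came from Agilent Feature Extraction (10.7.3.1), which subtracted background, removed trends within the array and substituted surrogates for the dimmest signals (22.8% of tooth and 25.5% of skin spots). Their probe coordinates are in mm9, and exon or UTR positions were not analysed here. The authors also deposited a table of ratios, each processed intensity over 1 factor per array, used here as an alternative. The methods name GeneSpring, removal of very low signals and a percentile shift.

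Outlier spots were dropped (2 tooth and 1 skin spots of the subunits), spots of a probe were averaged on the log2 scale, and each array's 75th percentile over non-control probes was subtracted. No spot was saturated. For a gene with several probes, the brightest one by its mean over the arrays stood for it. Where only 1 array called a probe, the fold was bounded by the bright value against the higher of the dim array's lowest called signal and the probe's own value, and written as at least N-fold. Counts and medians used dim values as measured unless bounds are named. A fold threshold of 2 was used without a test. The number of arrays limits the precision. The members and lists were chosen with earlier results of these data known.

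Genes named were those beyond 2-fold on both arrays, those with a bound of at least 2-fold, the one nearest to 0 in each role and those with conflicting probes, with relatives listed beside them. Values of 4 genes that this rule or the partner list names are not reported here. All 92 genes had a probe whose accession matched RefSeq (124 of 138 probes). Of the listed markers of other cell types, those of melanocytes (5 of 5) and fat cells (4 of 4) exceeded 2-fold towards skin, and those of dentin and bone (6 of 6) and osteoclasts (4 of 4) towards tooth. Hair follicle markers were higher in skin in 5 of 6. Neuron markers were measured in 5 of 8, with 2 higher in tooth, and Schwann cell markers in 6, with 2 higher in each tissue. Endothelial markers were higher in tooth in 3 of 5, macrophage markers in 2 of 4 and cartilage markers in 2 of 3 measured. Python 3.11.15, pandas 2.3.3, R 4.3.3 and limma 3.58.1 (normexp with an offset of 50, and quantile normalization) were used, and the calculation was tested on simulated data.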

Additional observations from a re-analysis of the deposited data

Results flagged for a closer look

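Kcnq1ot1, a non-coding RNA transcribed from within Kcnq1 and outside the name rule, gave a signal well above background on both arrays, where 0 of 308 negative control spots were called in tooth and 1 of 308 in skin. One probe (chr7:150434020-150434079, minus strand, mm9) had -2.04 in tooth and -2.65 in skin (difference -0.62). The other (chr7:150440140-150440199, minus strand, mm9) had 0.32 and 0.33 (difference 0.01). Neither lay beyond 2-fold.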

How the results depend on the processing

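With 1 array per tissue, no replicate could be left out and no difference can be set against animal variation. No paired analysis was possible because each group holds 1 sample and no test was run. The count of measured subunits was 35 when a call on both arrays was required. The number at least 2-fold higher in tooth, 28 as reported, was 10 under normexp and 12 when measured on both arrays. The number higher in skin, 7 as reported, was 3 when measured on both arrays and 12 both without a filter and with a lenient call. The median, -0.85 as reported, was -0.01 under normexp, -0.13 without a filter, -0.36 on both arrays, -0.40 with the lenient call, -0.56 with dim values at their bound, -1.10 with a median shift and -1.54 with spike-in scaling. Spike-in scaling moved the median of all genes by -0.69, the median shift by -0.25 and the absence of a filter by 0.22, and relative to all genes the subunits' median was -0.80, -0.81 and -0.31. By construction normexp compresses weak values, and the other settings change the scale or the genes counted. Of 25 subunits beyond 2-fold by their difference or bound, 16 stayed beyond it in the same direction in each setting that holds them. The 16 include Kcna6, whose probes disagree in direction. For a gene with a single probe called on both arrays, the settings for filter, call, bound and probe averaging cannot change the value. The count is therefore no measure of how reliable a direction is. The median of the Kv1 to Kv4 pores turned positive under normexp (0.05) and without a filter (0.15), those of the ether-a-go-go and 2-pore-domain groups under normexp (0.13 and 0.23). That of the inward rectifiers turned positive under normexp (0.02), with the lenient call (0.34) and without a filter (0.72). That of the KCNQ family did so with the lenient call and without a filter (0.23 in each), and that of the modifiers without a filter (0.57) and on both arrays (0.96, 1 gene). The lenient call and the absence of a filter add genes not well above background on either array. Equal weak intensities lie higher in skin after scaling, as the 75th percentile was 428 in tooth and 276 in skin. The medians that turned positive in those settings therefore cannot be read as a shift towards skin. Weak signal limits the calls made on 1 array only, as probes were called only from -4.52 upwards in tooth and from -3.73 upwards in skin.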
